A study of Mus musculus with 3 samples.

Results

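Ccl2, Ccl7, Ccl8, Ccl11 and Ccl12 encode CC chemokines, and Ccr2 encodes the receptor that Ccl2, Ccl7 and Ccl12 bind. These 6 genes, of 27998 in the deposited tables, were taken by symbol and followed across the cells of non-lesional skin and of healing wounds. In wounds and in non-lesional skin almost all Ccl2, Ccl7 and Ccl11 transcripts lay in fibroblast-like cells, which also held most transcripts of all genes. Ccl8 was held by fibroblast-like cells and a small macrophage-like group in non-lesional skin, and by fibroblast-like cells in wounds. Ccl12 was scarce, and Ccr2 lay in cells gated as monocytes or macrophages, as dendritic cells, or as T, NK or innate lymphoid cells.

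The receptor CCR2 draws monocytes out of the bone marrow and into inflamed tissue along gradients of its ligands. Ccl2, also called MCP-1, is its best known ligand. Ccl7 binds CCR2 and further CC receptors, and Ccl12 is a CCR2 ligand of the mouse. Mouse Ccl8 acts mainly through CCR8, a receptor of T helper and skin T cells, and Ccl11, eotaxin, acts through CCR3 on eosinophils. After skin injury, neutrophils and then monocytes enter the wound bed, and monocytes become macrophages there.

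Single-cell RNA was measured in 3 libraries, 1 per group: dorsal skin without a wound (non-lesional), and the wound bed 2 days (day 2) and 7 days (day 7) after wounding. All came from male C57BL/6 mice of 7 to 9 weeks, with no stated genetic change. The wounds were full-thickness, 1.0 by 0.5 cm, and made in the telogen phase of the hair cycle. How many animals went into a library, and whether they were pooled, is not stated in the sources used here. With 1 library per group no difference between groups has a replicate, so no test was made, and all intervals below are exact 95% intervals that cover counting error only.

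The non-lesional, day 2 and day 7 libraries held 10857, 8707 and 7317 barcodes with 123088680, 138046172 and 102345327 UMIs, a UMI being 1 captured mRNA molecule. After filters 9354, 7339 and 4714 cells were left. Between 14 and 24 barcodes were shared by any pair of libraries. Cells were put in classes by fixed marker genes, per cell and without use of the 6 genes. The fibroblast-like class held 6349, 4033 and 2589 cells, and its median depth was 9382, 26302 and 24522 UMIs. The monocyte or macrophage-like class held 85, 208 and 263 cells, and the class gated as T, NK or innate lymphoid cells, called lymphoid-like here, 334, 120 and 564. In the 3 libraries 11 to 12 of the 12 fibroblast markers were higher in the fibroblast-like class than in any other class, and 12 to 13 of the 13 monocyte and macrophage markers were highest in theirs. The same markers had placed the cells, so these counts are not a separate check of the classes. No cell passed the eosinophil gate. A level in CPM is a gene's UMIs divided by all UMIs of the class and scaled to 1e6. Levels are compared between cells and not between genes.

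The 5 chemokine genes form a run on mouse chromosome 11 and are all transcribed from the + strand. In GENCODE M21 on GRCm38 they lie in the order Ccl2 (82035571 to 82037453), Ccl7 (82045712 to 82047525), Ccl11 (82057823 to 82062955), Ccl12 (82101845 to 82103400) and Ccl8 (82115185 to 82116799). The span of 81.229 kb holds 5 protein-coding genes, all of them members. Ccr2 lies on chromosome 9 (124101950 to 124113557). The longest stretch of identical bases between any 2 of the 6 transcripts was 23 bases, between Ccl2 and Ccl7. RefSeq's promoter table (GRCm38.p6) holds Ccl8, Ccl12 and Ccr2. The neighbours Ccl12 and Ccl8 are shown because they are the 2 chemokine genes with a sequence in that table. These are the 250 bases before each start, chr11:82101595-82101844 for Ccl12 and chr11:82114935-82115184 for Ccl8, 5′ to 3′ on the + strand, with the TATAAA hexamer in capitals:
Ccl12: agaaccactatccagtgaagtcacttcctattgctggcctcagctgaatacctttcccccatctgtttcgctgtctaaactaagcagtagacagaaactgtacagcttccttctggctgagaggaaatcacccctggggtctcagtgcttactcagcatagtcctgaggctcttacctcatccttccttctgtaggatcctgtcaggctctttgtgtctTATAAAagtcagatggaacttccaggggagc
Ccl8: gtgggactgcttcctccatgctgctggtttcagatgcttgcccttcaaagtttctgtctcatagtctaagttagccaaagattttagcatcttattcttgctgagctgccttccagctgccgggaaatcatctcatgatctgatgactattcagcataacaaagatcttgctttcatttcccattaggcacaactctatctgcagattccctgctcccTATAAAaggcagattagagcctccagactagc
The hexamer starts at -31 in Ccl12 and at -32 in Ccl8, counted from the gene start. It was found, on either strand, in 12.4% of 32851 promoter windows of the same length. No match was found in the Ccl8, Ccl12 or Ccr2 windows, on either strand, for the AP-1 motif TGANTCA (6.75% of windows), the STAT motif TTCNNNGAA (7.02%), the NF-kB motif (7.25%) or the interferon response motif (2.98%). The hexamer was not found in the Ccr2 window. That window, chr9:124101933-124102182, lies mostly inside the Ccr2 gene as placed above, which starts at 124101950. The missing matches for Ccr2 therefore do not describe the bases before that start.

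Across whole libraries, Ccl2 stood at 732 CPM in non-lesional skin, 1595 CPM at day 2 and 999 CPM at day 7. Ccl7 stood at 871, 1355 and 833 CPM, and Ccl8 at 24.8, 161 and 127 CPM. Ccl11 was lower in both wounds, at 83.0, 46.5 and 43.4 CPM, while Ccr2 was highest at day 7, at 4.57, 5.55 and 15.0 CPM. Ccl12 had 22 UMIs in non-lesional skin, 19 at day 2 and 179 at day 7, or 0.204, 0.160 and 2.09 CPM. These levels mix the makeup of each library with the level in each class. Fibroblast-like cells held 98.3%, 97.3% and 92.2% of the Ccl2 UMIs of the 3 libraries, and between 90.4% and 98.9% of those of Ccl7 and Ccl11. They held 52.2% of Ccl8 in non-lesional skin, 98.4% at day 2 and 97.1% at day 7, and at most 4.10% of Ccr2. Of the UMIs of all genes they held 63172901 of 107708893 in non-lesional skin. The numbers were 110802758 of 118496174 at day 2 and 69104926 of 85718447 at day 7. A high share in this class, above all at day 2, is thus in part the makeup of the library.

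**Figure D1:**
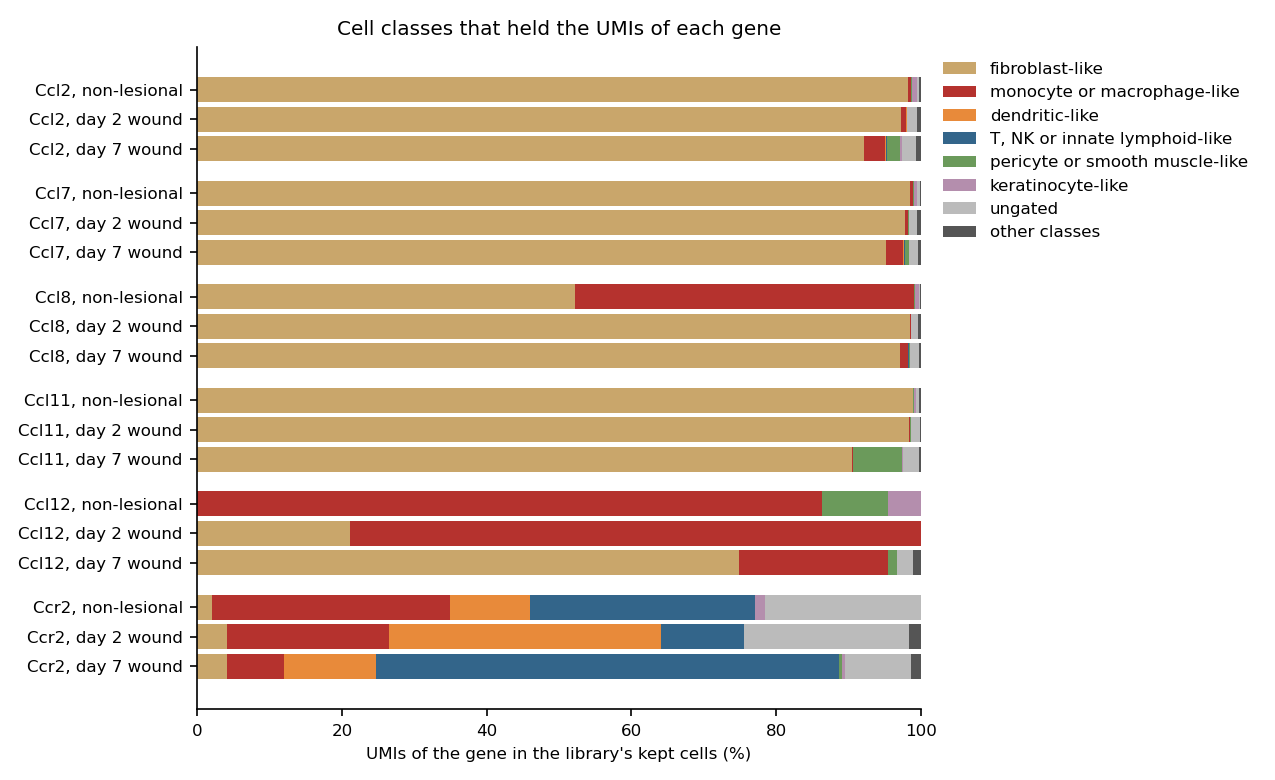
Share of each gene's UMIs found in each cell class (x axis, percent of the gene's UMIs in the kept cells of a library), with 1 bar per gene and library. Fibroblast-like cells filled over 90% of every Ccl2, Ccl7 and Ccl11 bar, monocyte or macrophage-like cells held 46.8% of the non-lesional Ccl8 bar, and the largest part of the Ccr2 bar at day 7 was lymphoid-like cells, at 63.9%. Fibroblast-like cells also held most UMIs of all genes in each library.

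In fibroblast-like cells, the CPM of Ccl8 was higher and that of Ccl11 lower in both wounds than in non-lesional skin, and both differed by more than Ccl2 and Ccl7. Ccl8 stood at 22.1 CPM in non-lesional skin, 170 CPM at day 2 and 153 CPM at day 7. Its level was 7.67 times the non-lesional level at day 2 (7.26 to 8.10) and 6.92 times at day 7 (6.54 to 7.32). Ccl11 stood at 140, 48.9 and 48.7 CPM, or 0.350 times the non-lesional level at day 2 (0.338 to 0.362) and 0.348 times at day 7 (0.334 to 0.362). The wound levels of Ccl11 did not differ beyond counting error, with a ratio of day 7 to day 2 of 0.995 (0.953 to 1.04). Ccl8 was a little lower at day 7 than at day 2, at 0.902 times (0.881 to 0.924).

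Ccl2 stood at 1227 CPM in non-lesional fibroblast-like cells, 1661 CPM at day 2 and 1142 CPM at day 7. The ratio to non-lesional skin was 1.35 at day 2 (1.34 to 1.37) and 0.931 at day 7 (0.922 to 0.940). Ccl7 stood at 1463, 1417 and 983 CPM, with ratios of 0.968 (0.960 to 0.976) and 0.671 (0.665 to 0.678). Both were lower at day 7 than at day 2, at 0.688 times for Ccl2 and 0.694 times for Ccl7. Day 2 was thus the highest point for Ccl2, and non-lesional skin and day 2 were close together for Ccl7. Wound fibroblast-like cells also held more RNA per barcode, and the directions differ when UMIs are counted per cell. Per cell, Ccl2 came to 3.74 times as many UMIs at day 2 as in non-lesional skin and 2.50 times as many at day 7. Ccl7 came to 2.67 and 1.80 times as many, so its lower CPM turned into a higher count per cell. Ccl8 came to 21.2 and 18.6 times as many. Ccl11 came to 0.965 and 0.933 times as many, so its difference nearly vanished per cell.

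A gene was counted as higher or lower where it differed at least 2-fold on the log2(CPM + 5) scale and had at least 10 UMIs in the pair of libraries. At day 2 against non-lesional skin, 5 of the 6 genes had enough UMIs in fibroblast-like cells. Of these 1 was higher (Ccl8) and 1 lower (Ccl11), where 11% of 16115 genes were higher and 6.32% lower. At day 7 against non-lesional skin all 6 were counted, and again 1 was higher (Ccl8) and 1 lower (Ccl11), where 8.1% of 16124 genes were higher and 3.98% lower. The median log2 difference over the genes counted was 0.02 at day 2 and 0.03 at day 7, against 0.05 and 0.14 over all genes. None of the 6 passed 2-fold between day 7 and day 2, where 3.32% of 16386 genes were higher and 1.6% lower. The TMM factors, used in place of total UMIs, shift log2 differences from non-lesional skin down by 0.19 at day 2 and 0.42 at day 7, and with them the directions given for Ccl2, Ccl7, Ccl8 and Ccl11 were kept.

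**Figure D2:**
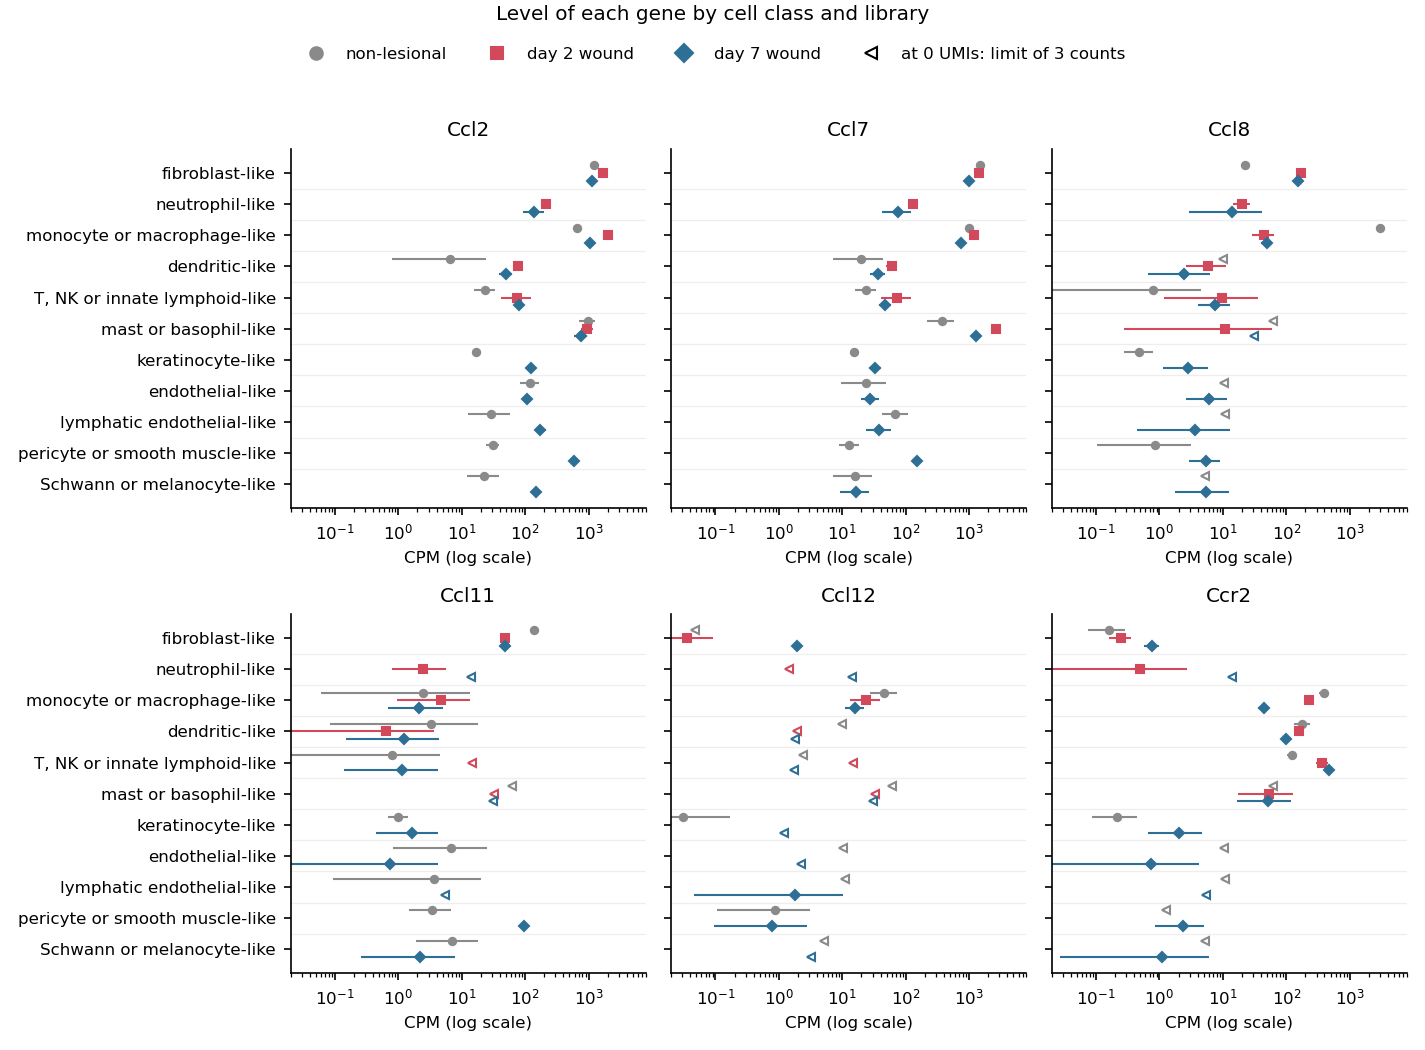
Level of each of the 6 genes (x axis, CPM on a log scale) in 11 cell classes of the 3 libraries, with exact 95% Poisson intervals for counting error. Classes with too few cells in a library are left out, and open triangles mark a count of 0 at the limit that 3 counts would give. The non-lesional point for Ccl8 in monocyte or macrophage-like cells, at 3025 CPM, stands far to the right of both wound points, while the fibroblast-like points run the other way.

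At day 2 most fibroblast-like cells carried Ccl2 and Ccl7, while in non-lesional skin a minority carried most of them. To compare cells at equal depth, each was thinned to 5000 UMIs, which kept 5342, 3703 and 2201 cells of the 3 libraries. The median cell then held 0 Ccl2 UMIs in non-lesional skin, 5 at day 2 and 1 at day 7, and the highest cell 405, 72 and 128. The share of cells with a Ccl2 UMI was 37.1% in non-lesional skin, 89.1% at day 2, 59.8% at day 7, against 42.6%, 95.3% and 75.7% before thinning. The 10% of cells with the most Ccl2 held 77.2% of its UMIs in non-lesional skin, 33.7% at day 2 and 62.0% at day 7. Ccl7 showed the same order, with 59.4%, 34.0% and 54.8% of its UMIs in those cells and a UMI in 53.9%, 90.3% and 61.6% of cells. So a similar level of the class was reached by many cells with a few UMIs at day 2, and by few cells with many in non-lesional skin. Shares of cells with a Ccl8 UMI at this depth were 6.80%, 43.7% and 34.1%, and those with a Ccl11 UMI 28.4%, 14.2% and 13.5%.

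**Figure D3:**
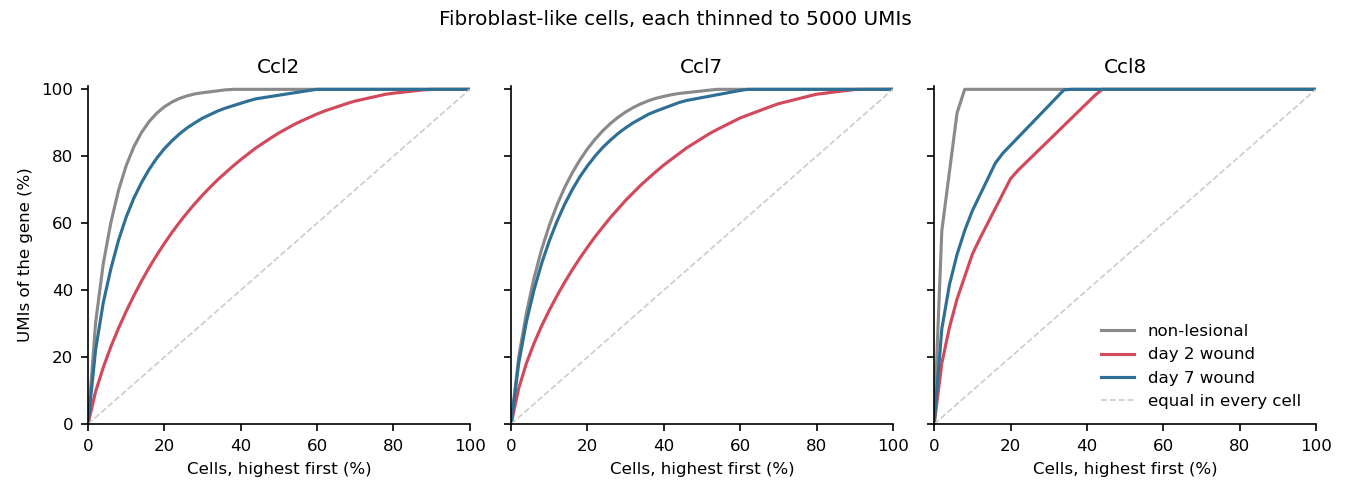
Percent of the UMIs of Ccl2, Ccl7 and Ccl8 (y axis) held by the fibroblast-like cells with the most of them (x axis, percent of cells, highest first), with every cell thinned to 5000 UMIs. The day 2 curves for Ccl2 and Ccl7 lie nearest the dashed line of equal cells, since the top 10% of cells held 33.7% and 34.0% there.

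Ccl2 and Ccl7 ran together from cell to cell in fibroblast-like cells, while Ccl8 had little relation to Ccl2. Over cells at 5000 UMIs the Spearman correlation of Ccl2 with Ccl7 was 0.595 in non-lesional skin, 0.550 at day 2 and 0.580 at day 7. That of Ccl2 with Ccl8 was 0.090, 0.020 and 0.021. Ccl2 with Ccl11 gave 0.438 in non-lesional skin, -0.003 at day 2 and 0.176 at day 7. These values describe cells of 1 library each, which share that library's preparation, and they pool the clusters described below. Ccl8 was seen in 6.80%, 43.7% and 34.1% of these cells, and sparse counts limit how high its correlations can be. Of non-lesional cells with a Ccl2 UMI 82.2% also held Ccl7, against 53.9% of all cells. Of those with a Ccl7 UMI 56.6% held Ccl2, against 37.1% of all cells. At day 2 the share of Ccl2 cells that held Ccl7, 92.8%, was near the 90.3% of all cells.

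The fibroblast-like cells fell into clusters, made without the 6 genes, that differed widely in these chemokines within 1 library. Levels by cluster cover every cell of the cluster in a library, whatever its gate. In non-lesional skin the cluster led by Smpd3 and Pi16 (1624 cells) had 4037 CPM of Ccl2 and 427 CPM of Ccl11, the highest of 5 clusters for both. The clusters led by Wfdc12 and Cdh4 (2319 cells) and by Coch and Robo2 (658 cells) had 95.7 and 97.3 CPM of Ccl2 and 12.1 and 12.5 CPM of Ccl11. Clusters led by Myoc and Cilp (733 cells) and by C6 and Tnmd (1130 cells) lay between, with 1458 and 875 CPM of Ccl2. Ccl7 was within 2349 to 2976 CPM in the Smpd3 Pi16, Myoc Cilp and C6 Tnmd clusters, and at 315 and 153 CPM in the other 2. Ccl8 varied less, from 5.80 to 35.5 CPM over the 5 clusters.

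Wound fibroblast-like cells formed other clusters, most of them found in 1 library, so cluster and library cannot be told apart. At day 2 the clusters led by Saa3 and Cxcl14 (2314 cells) and by Thbd and Ereg (1717 cells) had 1411 and 1956 CPM of Ccl2 and 1451 and 1381 CPM of Ccl7. The Saa3 Cxcl14 cluster had more Ccl8 (223 against 107 CPM) and more Ccl11 (63.8 against 31.3 CPM). At day 7 the cluster led by Mgp and Dlk1 (480 cells) had 3494 CPM of Ccl2, 2788 CPM of Ccl7 and 156 CPM of Ccl11, above every other day 7 cluster of 50 or more cells. The larger Prss35 Tnn cluster (1499 cells) had 730 CPM of Ccl2 and 691 CPM of Ccl7. Cells led by Wif1 and Gldn (262 cells) were the lowest at day 7 for all 4 genes, with 41.9 CPM of Ccl2 and 2.87 CPM of Ccl8.

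Within clusters present in both libraries, Ccl8 was again higher at day 7 than in non-lesional skin. It stood at 930 CPM in 53 day 7 cells of the Wfdc12 Cdh4 cluster, against 21.1 CPM in 2319 non-lesional cells. It stood at 286 CPM in the day 7 Coch Robo2 cells, against 5.80 CPM in the non-lesional ones. In the C6 Tnmd cluster it stood at 281 CPM at day 7, against 21.7 CPM in non-lesional skin. Ccl2 did not move alike in them, since it was higher at day 7 in the Wfdc12 Cdh4 cells (369 against 95.7 CPM) and lower in the C6 Tnmd cells (330 against 875 CPM). Immediate early and heat shock genes, which tissue digestion can induce, summed to 24920 CPM in non-lesional fibroblast-like cells, 12614 CPM at day 2 and 14294 CPM at day 7. Over the clusters that sum ran from 7564 CPM in the day 7 Coch Robo2 cells to 32937 CPM in the Myoc Cilp cells. Among day 7 clusters it was highest in the Mgp Dlk1 cells, at 25162 CPM, where Ccl2, Ccl7 and Ccl11 were also highest. The part of these genes in the chemokine levels was not tested.

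**Figure D4:**
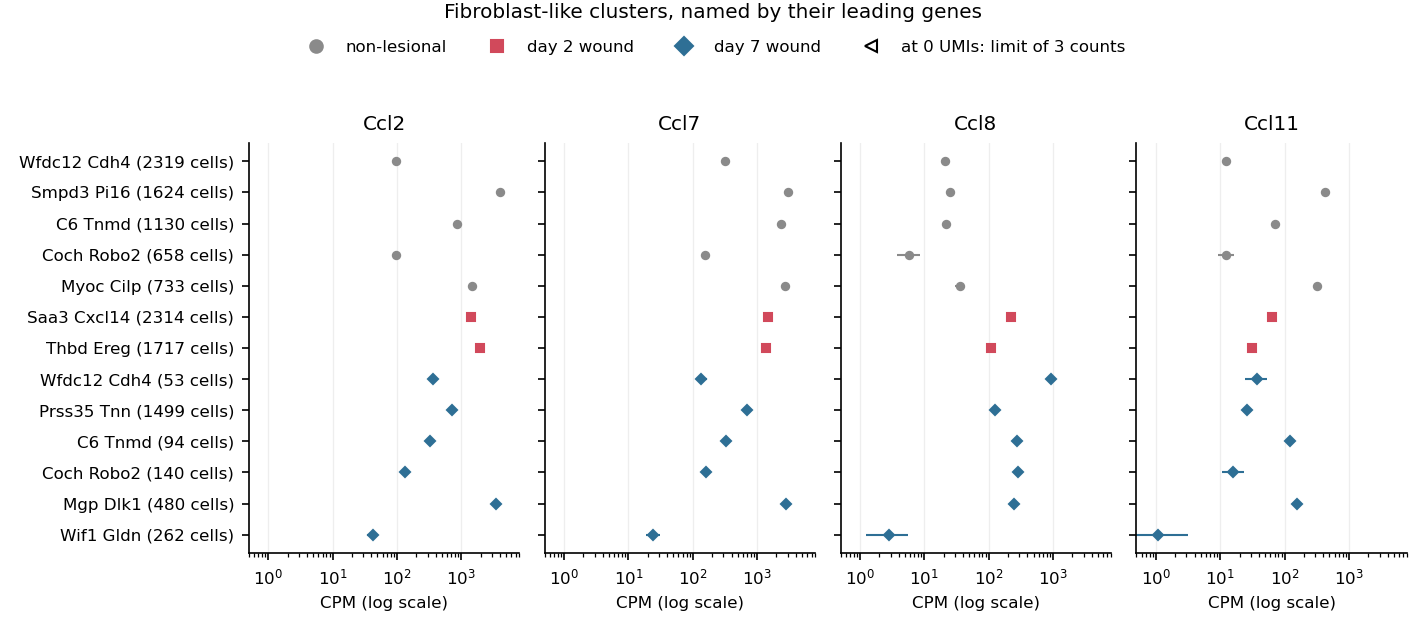
Levels of Ccl2, Ccl7, Ccl8 and Ccl11 (x axis, CPM on a log scale) in each fibroblast-like cluster of 50 or more cells in a library, with exact 95% Poisson intervals, many narrower than the marker. Ccl2 ran from 95.7 to 4037 CPM over non-lesional clusters and from 41.9 to 3494 CPM over day 7 clusters, a wider range than between the libraries.

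In monocyte or macrophage-like cells Ccl8 was far lower in wounds than in non-lesional skin, and Ccl2 was higher at day 2. Ccl8 stood at 3025 CPM in non-lesional skin, 43.8 CPM at day 2 and 48.9 CPM at day 7. It was 69.0-fold lower at day 2 (47.5 to 104) and 61.9-fold lower at day 7 (51.0 to 75.6). The wound counts rest on few cells: 15 of 28 UMIs at day 2 and 91 of 114 at day 7 were in 1 cell each. Ccl2 stood at 659, 2047 and 1060 CPM, 3.11 times the non-lesional level at day 2 (2.72 to 3.55) and 1.61 times at day 7 (1.42 to 1.83). Ccl7 stood at 978, 1201 and 735 CPM, with ratios of 1.23 (1.09 to 1.39) and 0.752 (0.674 to 0.840). The direction of Ccl7 at day 2 turned round with classes taken from clusters (a log2 difference of -0.31) and without doublet removal (-0.22), against 0.30 as reported. Col1a1, Col1a2, Col3a1 and Dcn, 4 fibroblast genes, stood in this class at 0.777% to 1.12% of their fibroblast-like level in non-lesional skin, 3.73% to 7.94% at day 2 and 1.80% to 4.04% at day 7. Ccl2 stood at 53.7%, 123% and 92.8% of its own fibroblast-like level there.

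The class was made up of different clusters in wounds and in non-lesional skin. Of 85 non-lesional cells 45 belonged to a cluster led by Retnla and C1qa, which had no cell in either wound, and 38 to a cluster led by Cd74 and H2-Ab1. Of the wound cells 162 of 208 at day 2 and 235 of 263 at day 7 belonged to a cluster led by Pf4 and Rsad2. The Retnla C1qa cells held 1251 of the 1253 Ccl8 UMIs of the class in non-lesional skin, with a level of 5842 CPM and a UMI in 84.4% of cells. They also had 1121 CPM of Ccl2, 1854 CPM of Ccl7 and 74.7 CPM of Ccl12. The Pf4 Rsad2 cells had 2883 CPM of Ccl2 at day 2 and 1127 CPM at day 7, and 62.6 and 52.4 CPM of Ccl8. The Cd74 H2-Ab1 cells, present in all 3 libraries, had little of either, with 172, 94.9 and 114 CPM of Ccl2 and 1, 0 and 0 UMIs of Ccl8. Differences of the whole class between groups are therefore also differences between these clusters, and the 2 cannot be told apart.

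Of the 6 genes, 5 had enough UMIs in monocyte or macrophage-like cells. At day 2 against non-lesional skin 1 was higher (Ccl2) and 1 lower (Ccl8), where 12.8% of 7590 genes were higher and 13.5% lower. At day 7 none was higher and 3 were lower (Ccl8, Ccr2 and Ccl12), where 12.8% of 9707 genes were higher and 10.6% lower. Genes of resident macrophages were lower with Ccl8. Of 9 counted at day 2, 8 were lower and none higher, with a median log2 difference of -5.44 against -0.04 over all genes. Of 10 counted at day 7, 9 were lower and 1, Pf4, was higher, with a median of -3.07 against 0.04. Mrc1, the mannose receptor, stood at 1272 CPM in non-lesional skin, 79.9 CPM at day 2 and 172 CPM at day 7. Mrc1 is also a gate marker of this class, so its level there depends in part on the gate. F13a1, coagulation factor XIII A, stood at 1285, 185 and 230 CPM, and Pf4, a platelet and macrophage chemokine, at 1681, 2302 and 4047 CPM.

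Ccl12 was a gene of few cells. In monocyte or macrophage-like cells it had 19 UMIs in 10 cells of non-lesional skin, 15 UMIs in 7 cells at day 2 and 37 UMIs in 14 cells at day 7. The levels were 45.9, 23.5 and 15.9 CPM. The ratio to non-lesional skin was 0.512 at day 2, with an interval of 0.242 to 1.06 that includes no difference, and 0.346 at day 7 (0.194 to 0.637). This class held 86.4%, 78.9% and 20.7% of the Ccl12 UMIs of the libraries. At day 7 the larger part, 134 of 179 UMIs, was in 49 fibroblast-like cells, 37 of them in 1 cell. The day 7 fibroblast-like level was 1.94 CPM, against 0 UMIs in non-lesional skin, a limit of 0.0475 CPM at 3 counts over the class. The ratio to that limit was 40.8, and the exact interval of the ratio to 0 UMIs began at 32.8. On the log2 scale used above to count genes as higher or lower, the difference was 0.47, short of 2-fold. Of the 134 UMIs 129 lay in the Prss35 Tnn cluster. The level was 12.2% of that of the monocyte or macrophage-like cells, while C1qa, C1qb, C1qc and Lyz2, 4 macrophage genes, stood at 0.0820% to 0.201% in the same fibroblast-like cells.

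Ligands were also measured in pericyte or smooth muscle-like, mast or basophil-like, keratinocyte-like and erythroid-like cells. The 62 erythroid-like cells of day 2 had 859 CPM of Ccl2, 653 CPM of Ccl7 and 90.5 CPM of Ccl8. These were 51.8%, 46.1% and 53.3% of the fibroblast-like levels, beside the 4 fibroblast genes at 47.7% to 60.7%. In 162 pericyte or smooth muscle-like cells of day 7 wounds Ccl2 stood at 578 CPM, against 30.5 CPM in 301 non-lesional cells, a ratio of 18.9 (14.9 to 24.4). In 1 day 7 cell were 378 of the 1502 UMIs. Ccl7 stood at 153 CPM at day 7, against 12.9 CPM in non-lesional skin (ratio 11.8, 8.15 to 17.8). Ccl11 stood at 95.9 CPM at day 7, against 3.44 CPM in non-lesional skin (ratio 27.9, 13.9 to 65.3), with its UMIs in 38 of the day 7 cells. At least 2-fold higher in this class at day 7 were 14.6% of 11630 genes. The 4 fibroblast genes stood there at 2.19% to 15.1% of their fibroblast-like level at day 7 and 0.547% to 2.34% in non-lesional skin, while Ccl11 stood at 197% and 2.46% of its own. At day 2 only 10 such cells were found.

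Mast or basophil-like cells, a source of early mediators in skin, numbered 32, 28 and 24, too few for a comparison of groups. Their Ccl2 stood at 964 CPM in non-lesional skin (709 to 1282), 959 CPM at day 2 (771 to 1181) and 750 CPM at day 7 (588 to 942), with overlapping intervals. Their Ccl7 stood at 369 CPM (219 to 584), 2641 CPM (2321 to 2994) and 1273 CPM (1059 to 1518). These intervals are separate, but they leave out the spread between so few cells. The fibroblast genes stood there at 1.11% to 2.64%, 5.48% to 6.66% and 1.89% to 4.59% of their fibroblast-like level. In keratinocyte-like cells Ccl2 stood at 123 CPM at day 7, against 16.6 CPM in non-lesional skin (ratio 7.43, 6.44 to 8.56), where 4.54% of 13574 genes were at least 2-fold higher. These 123 CPM were 10.8% of the fibroblast-like level, with the fibroblast genes at 1.38% to 1.85%.

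Neutrophil-like, dendritic-like and lymphoid-like cells had low levels of the ligands. Neutrophil-like cells, of which 1970 were found at day 2 and 155 at day 7, had 209 and 136 CPM of Ccl2. That was 12.6% and 11.9% of the fibroblast-like level, and the 4 fibroblast genes stood in them at 6.11% to 15.5% and 6.14% to 10.5%. Dendritic-like cells had 6.59, 76.4 and 49.1 CPM of Ccl2, and lymphoid-like cells 23.3, 73.7 and 79.6 CPM. As shares of the fibroblast-like level these were 0.538%, 4.60% and 4.30% in dendritic-like cells, where the 4 fibroblast genes stood at 0.509% to 0.759%, 2.09% to 5.56% and 1.54% to 3.28%. In lymphoid-like cells the Ccl2 shares were 1.90%, 4.44% and 6.97%, and the fibroblast genes stood at 0.926% to 1.28%, 2.62% to 10.5% and 2.82% to 6.17%. In neutrophil-like and lymphoid-like cells at day 2 the share lay within the range of the fibroblast genes. So did the shares in dendritic-like cells of non-lesional skin and day 2. Such shares cannot be told apart from background from free RNA, and their source was not tested. The other 4, neutrophil-like and dendritic-like cells at day 7 and lymphoid-like cells of non-lesional skin and day 7, lay above that range, by less than 2-fold.

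The classes were ordered as follows. For Ccl2 in non-lesional skin, fibroblast-like cells came first, mast or basophil-like cells next and monocyte or macrophage-like cells after them, and all other classes of 20 or more cells were at 155 CPM or below. The interval of the mast or basophil-like cells, 709 to 1282 CPM, overlapped that of fibroblast-like cells, 1218 to 1235 CPM. At day 2 monocyte or macrophage-like cells were first, at 2047 CPM (1937 to 2161), above fibroblast-like cells at 1661 CPM (1653 to 1668). At day 7 fibroblast-like cells, at 1142 CPM (1134 to 1150), and monocyte or macrophage-like cells, at 1060 CPM (1018 to 1102), were close. For Ccl7 the mast or basophil-like cells, only 28 at day 2 and 24 at day 7, were first in both wounds. For Ccl11 pericyte or smooth muscle-like cells were first at day 7, and fibroblast-like cells in the other 2 libraries.

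Ccr2 was higher in wounds in lymphoid-like cells and lower in monocyte or macrophage-like cells. In lymphoid-like cells it stood at 123 CPM in non-lesional skin (104 to 144), 369 CPM at day 2 (290 to 462) and 475 CPM at day 7 (443 to 509). The ratio to non-lesional skin was 2.99 at day 2 (2.24 to 3.97) and 3.86 at day 7 (3.24 to 4.62). Day 7 was 1.29 times day 2 (1.02 to 1.66), near the edge of counting error. In cells thinned to 1000 UMIs, a Ccr2 UMI was seen in 8.16%, 26.7% and 30.9%, against 23.7%, 33.3% and 49.5% before thinning. In fibroblast-like cells, which should lack the gene, thinned shares were 0.0160%, 0.0502% and 0.158%, at unthinned median depths of 9382, 26302 and 24522 UMIs against 3444, 1298 and 2365 in the lymphoid-like class. Thinning left out shallower cells, so these shares describe the deeper ones.

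The difference was seen in 2 of 3 clusters of the class. Cells led by Gzmc and Il17a had 146 CPM of Ccr2 in non-lesional skin (123 to 173), 302 CPM at day 2 (214 to 415) and 398 CPM at day 7 (350 to 452). Cells led by Ctla4 and Icos, with Foxp3 among their leading genes, had 188 CPM (109 to 300), 488 CPM (332 to 693) and 586 CPM (539 to 635). The third cluster, led by Cd3g and Cd7, had 0 Ccr2 UMIs in 47 day 7 cells and 0 in 70 non-lesional cells, which allows up to 29.7 and 13.5 CPM at 3 counts. Cells of the Ctla4 Icos cluster made up 9.28% of the class in non-lesional skin, 30.8% at day 2 and 44.7% at day 7. In this class 3 of the 3 genes with enough UMIs were higher at day 2 (Ccr2, Ccl2 and Ccl7), where 17.5% of 8389 genes were higher. At day 7, 3 of 4 were higher (Ccr2, Ccl2 and Ccl8), where 14.8% of 10374 genes were higher. The call of Ccl8 rests on 13 UMIs at day 7 against 1 in non-lesional skin (ratio interval 1.40 to 396), and those of Ccl2 and Ccl7 at day 2 did not hold with classes taken from clusters. As shares of the fibroblast-like level, Ccl2 and Ccl7 at day 2 and Ccl8 at day 7 (4.90%) lay within the ranges of the fibroblast genes. These 3 calls therefore cannot be told apart from background, and their source was not tested. The Ccl2 share at day 7, given above, lay over the range of the fibroblast genes by less than 2-fold. Its source was not tested either.

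**Figure D5:**
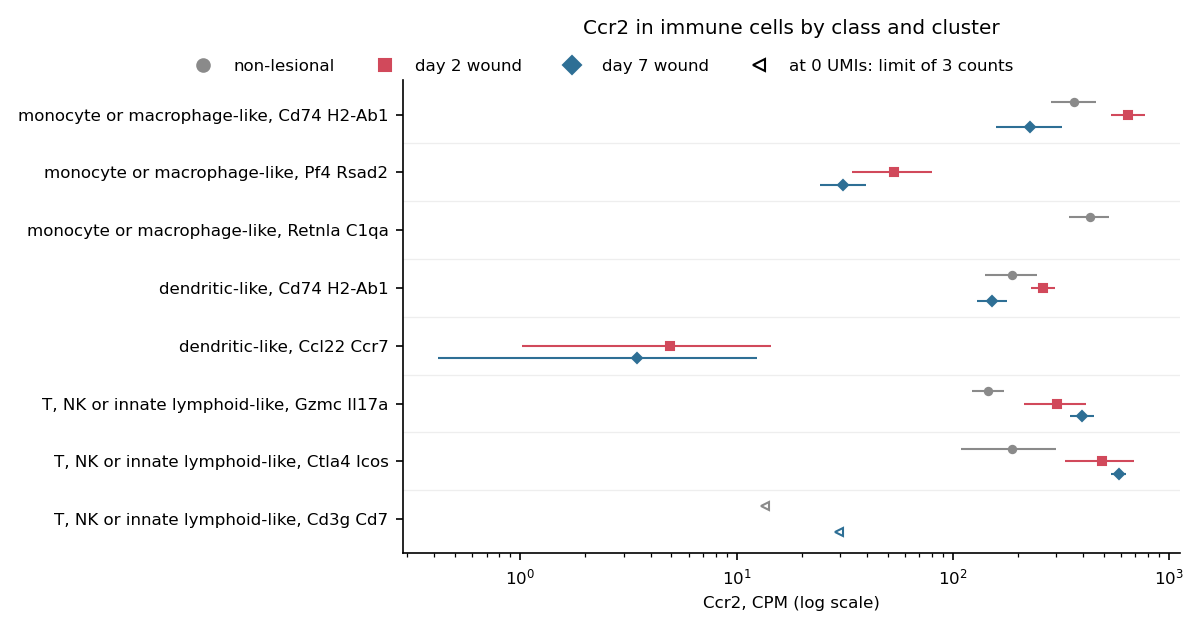
Level of Ccr2 (x axis, CPM on a log scale) in the clusters of the monocyte or macrophage-like, dendritic-like and lymphoid-like classes, with exact 95% Poisson intervals. Open triangles mark 0 UMIs at the limit of 3 counts. Wound points lie right of the non-lesional points in the Gzmc Il17a and Ctla4 Icos clusters, and the Pf4 Rsad2 cells, at 53.7 CPM at day 2 and 31.2 CPM at day 7, lie left of the other monocyte or macrophage-like clusters.

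In monocyte or macrophage-like cells Ccr2 stood at 391 CPM in non-lesional skin, 230 CPM at day 2 and 43.8 CPM at day 7. It was 1.70-fold lower at day 2 (1.35 to 2.14) and 8.94-fold lower at day 7 (6.93 to 11.6). Day 7 was 0.190 times day 2 (0.146 to 0.246), where 3.7% of 9758 genes were at least 2-fold lower. The levels followed the clusters. Cd74 H2-Ab1 cells had 364 CPM (284 to 460), 648 CPM (539 to 773) and 228 CPM (158 to 319), so within this cluster day 2 was the highest. The Retnla C1qa cells of non-lesional skin had 430 CPM, and the Pf4 Rsad2 cells 53.7 CPM at day 2 and 31.2 CPM at day 7. Of the 147 Ccr2 UMIs of the class at day 2, 123 were in the 44 Cd74 H2-Ab1 cells. With classes taken from clusters, which name the Cd74 H2-Ab1 cluster dendritic, the day 2 log2 difference was -3.39, against -0.75 as reported.

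Most genes of classical monocytes, among them Ly6c2, were lower at day 7, as Ccr2 was. At day 2, 3 of 12 were higher and 2 lower in monocyte or macrophage-like cells, with a median log2 difference of -0.09, where 12.8% of all genes were higher and 13.5% lower. At day 7, 1 of 12 was higher (Fn1) and 8 were lower, with a median of -1.38 against 0.04 over all genes, of which 12.8% were higher and 10.6% lower. F13a1, given above with the resident macrophage genes, is on both lists and is counted as lower in both at each day. Plac8 stood at 519 CPM in non-lesional skin, 603 CPM at day 2 and 87.5 CPM at day 7. Ly6c2, a surface antigen of inflammatory monocytes and also a gate marker of this class, stood at 179, 124 and 31.3 CPM. Fn1, fibronectin, went the other way, at 167, 1048 and 716 CPM.

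Dendritic-like cells had 178 CPM of Ccr2 in 34 cells of non-lesional skin (134 to 232), 161 CPM in 344 cells at day 2 (141 to 182) and 100 CPM in 219 cells at day 7 (85.4 to 117). Day 7 was 0.623 times day 2 (0.509 to 0.762), short of 2-fold, where 4.35% of 9829 genes passed it in either direction. The level lay in the Cd74 H2-Ab1 cells, at 187, 263 and 153 CPM. Cells led by Ccl22 and Ccr7, genes of migrating dendritic cells, had 3 UMIs at day 2 and 2 at day 7. The classes that held Ccr2 differed between libraries. Monocyte or macrophage-like cells held 32.9%, 22.3% and 7.91% of its UMIs, lymphoid-like cells 31.1%, 11.4% and 63.9%, and ungated cells 21.5%, 22.8% and 9.15%. Dendritic-like cells held 37.7% at day 2 and 12.8% at day 7. Neutrophil-like cells had 1 Ccr2 UMI in 1970 cells at day 2 and 0 in 155 cells at day 7.

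Other receptors of these chemokines were measured in the same classes. Ccr1, which also binds Ccl7, stood at 856 CPM in neutrophil-like cells at day 2 and 1507 CPM at day 7. In monocyte or macrophage-like cells it was at 96.6, 130 and 118 CPM. Ccr3, the receptor of Ccl11, had 5 UMIs in lymphoid-like cells at day 2 and 43 at day 7 (24.8 CPM, 17.9 to 33.4). Ccr8, the receptor of mouse Ccl8, had 4, 3 and 17 UMIs in that class, with overlapping intervals. Ackr1, an atypical receptor that binds but does not signal, stood at 96.8 CPM in non-lesional fibroblast-like cells, 3.26 CPM at day 2 and 3.42 CPM at day 7. In endothelial-like cells it stood at 97.8 CPM in 87 day 7 cells, against 10.3 CPM (3 UMIs) in 37 non-lesional cells. Ackr2, a scavenger of CC chemokines, stood at 123 CPM in lymphatic endothelial-like cells at day 7, against 116 CPM in non-lesional skin.

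Genes known to respond to or carry IL-1, TNF and NF-kB signals, pathways that induce Ccl2 in many cells, were often higher at day 2. In fibroblast-like cells 12 of 24 were higher and 2 lower at day 2, with a median log2 difference of 1.00 against 0.05 over all genes. At day 7, 6 were higher and 5 lower, and against day 2, 9 were lower and none higher. Over all genes of that class 11% were higher and 6.32% lower at day 2, and 8.1% higher and 3.98% lower at day 7. In monocyte or macrophage-like cells 19 of 24 were higher at day 2 and 13 of 23 at day 7, and none lower, where 12.8% of all genes were higher at each day. Cxcl5, Csf3 and Cxcl2, among those higher at both days, were also higher in fibroblast-like cells at both days. How much of their level in monocyte or macrophage-like cells came from free RNA was not tested. Cxcl1, a neutrophil chemokine, stood at 969 CPM in non-lesional fibroblast-like cells, 3585 CPM at day 2 and 1615 CPM at day 7, and Cxcl2 at 158, 2064 and 972 CPM. Cxcl5 stood at 0.190, 2638 and 404 CPM. Genes of type 2 cytokine signalling, 7 of 9 of them higher in fibroblast-like cells at day 2 (11% of all genes) and none lower, included Il33 (33.8, 560 and 41.1 CPM), an alarmin, and Il4ra (68.8, 294 and 69.7 CPM), the receptor chain of IL-4 and IL-13. Postn, periostin, stood at 375, 471 and 4156 CPM. Among other CC chemokines in monocyte or macrophage-like cells, Ccl4 stood at 2180, 29418 and 15541 CPM and Ccl3 at 275, 6634 and 3420 CPM, while Ccl6 stood at 2106, 547 and 548 CPM.

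The genes whose levels ran most like each member were ranked over 22 combinations of class and library with 50 or more cells, among 15718 genes, by Pearson's r of log2(CPM + 5). These combinations share libraries, and the values are descriptive. Ccl2 ran most like Mmp19 (r of 0.867), Man2a1, Fn1, Guca1a and Ifi204 (0.832), and Ccl7 most like Mmp19 (0.918), Guca1a, Ifi204, Mnda and Lrp1 (0.851). Between Ccl2 and Ccl7 r was 0.940, above any of these. For Ccl8 the first was Tmem74b (0.826), then Gm21807, Cfb, Hacd4 and Tlr5 (0.768). Ccl11 ran most like Parvaos (0.945), Mirg, Adamts2, Serping1 and Ms4a4d (0.890). Ccl12 was most like Ms4a14 (0.968), F13a1, C1qa, Fcgr1 and C1qb. Of these C1qa, Fcgr1 and C1qb are gate markers of the monocyte or macrophage-like class. Ccr2 was most like Ms4a6b (0.954), Cd48, AI504432, Itgb7 and Fermt3 (0.940). Ccr2 and Ccl2 gave -0.02.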

How the data were processed

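Droplet libraries were made with a Chromium 3′ v2 kit after digestion with collagenase D and DNase1, per the labels' protocols. Each deposited matrix holds raw counts of UMIs by gene and barcode, from the authors' run of Cell Ranger. The submitters' processing notes name version 3.0.2, Seurat 3.0 and mm10, while the file headers name Cell Ranger 5.0.0.

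Barcodes with under 200 genes (192, 390 and 543 in the non-lesional, day 2 and day 7 libraries) or over 10% mitochondrial UMIs (368, 372 and 1632) were removed. Scrublet's own threshold marked 373, 1 and 0 barcodes, so the top-scoring 0.8% per 1000 barcodes were removed as doublets instead (943, 606 and 428). A barcode entered a class when its score over that class's markers was at least 0.1 (0.25 for fibroblasts) and 1.5 times the next class's (1.2 times between related classes). There were 16 marker lists with 158 markers, 5 of them not in the file. Leiden clusters (resolution 1, 2000 variable genes, 30 components, 20 neighbours) were made without the 6 genes and named by leading genes. The monocyte and macrophage markers include Mrc1, Ly6c2, Lyz2, Fcgr1, C1qa, C1qb and C1qc. The fibroblast markers include Col1a1, Col1a2, Col3a1 and Dcn. Levels of these genes by class depend in part on the gate. UMIs were summed by class and library. Levels carry exact Poisson intervals, ratios conditional binomial ones, and a fold against 0 UMIs uses 3 counts over the class. Classes of at least 50 cells in both libraries were compared. Genes named beside the 6 are the 5 most alike to each, among those with at least 50 UMIs, the best expressed of each list, and the receptors Ccr1, Ccr3, Ccr8, Ackr1 and Ackr2. A further receptor is not reported here. The members and lists were chosen with earlier results of these data known. Alternatives were classes from clusters, stricter cell filters (500 genes, 5% mitochondrial UMIs), no doublet removal, TMM and median-of-ratios scaling, a pseudocount of 1 CPM, thinning, and no low-count filter. Python 3.11.15, scanpy 1.11.5, leidenalg 0.10.2, scipy 1.17.1 and, for TMM factors alone, edgeR 4.0.16 in R 4.3.3 were used. The programs were tested on simulated data.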

Additional observations from a re-analysis of the deposited data

Results flagged for a closer look

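Ccl8 differed from non-lesional skin in opposite directions in 2 cell classes. At day 2 its log2 difference was 2.69 in fibroblast-like cells and -5.96 in monocyte or macrophage-like cells. At day 7 it was 2.54 in fibroblast-like cells, 1.11 in lymphoid-like cells, but -5.81 in monocyte or macrophage-like cells. The lymphoid-like value rests on 13 UMIs at day 7, at 4.90% of the fibroblast-like level, within the 2.82% to 6.17% of the fibroblast genes there. That value cannot be told apart from background from free RNA, and its source was not tested. Ccl11 at day 7 was opposite in pericyte or smooth muscle-like cells (3.58) and in fibroblast-like cells (-1.43), where UMIs per cell were 0.933 times the non-lesional number. Ccr2 at day 7 was opposite in lymphoid-like cells (1.91) and monocyte or macrophage-like cells (-3.02). With 1 library per group, the difference between classes was not tested in any of these.

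Barcodes removed for over 10% mitochondrial UMIs, 372 at day 2, 1632 at day 7 and 368 in non-lesional skin, also held ligands. Levels of Ccl2, Ccl7 and Ccl8 in these barcodes were higher in wounds. Ccl2 stood in them at 460 CPM at day 2 and 201 CPM at day 7, against 156 CPM in non-lesional skin. Ccl7 stood at 562 CPM at day 2 and 185 CPM at day 7, against 147 CPM in non-lesional skin. Ccl8 stood at 83.0 CPM at day 2 and 50.2 CPM at day 7, against 5.69 CPM in non-lesional skin. Ccl11 stood at 32.3 CPM at day 2 and 25.2 CPM at day 7, against 21.3 CPM in non-lesional skin, with overlapping intervals. Ccl12 had 3 UMIs at day 7 and 0 at day 2 and in non-lesional skin.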

How the results depend on the processing

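Of 313 recomputed log2 differences none past 2-fold changed sign, 69 moved beyond counting error and 18 crossed 2-fold. For Ccl2 in fibroblast-like cells at day 2 (0.44 as reported), TMM factors gave 0.25, median-of-ratios factors 0.20 and thinning 0.15. For Ccl8 there (2.69), they gave 2.52 with TMM, 2.48 with median of ratios and 2.88 with a pseudocount of 1 CPM. For Ccl8 in monocyte or macrophage-like cells at day 2 (-5.96), cluster classes gave -6.65, thinning -7.15 and a strict gate, chosen after seeing the data, -5.03. Ccr2 in that class at day 7 (-3.02) was -3.54 with cluster classes, and Ccr2 in lymphoid-like cells at day 7 (1.91) was 2.36 with the strict gate and 2.32 with thinning. Ccl2 and Ccl7 in those lymphoid cells at day 2 (1.47 each) came short of 2-fold with cluster classes (0.69 and 0.45) and thinning (0.62 and 0.66). Ccl8 there at day 7 (1.11) was 0.99 with TMM. Ccl12 in monocyte or macrophage-like cells at day 2 (-0.84) was 0.01 with the strict gate and -1.94 with cluster classes. With a pseudocount of 1 CPM the genes past 2-fold numbered 4521 in fibroblast-like cells at day 2 (2783 as reported), 3623 at day 7 (1947), and 3197 in lymphoid-like cells at day 7 (1994). Where a value moved, the cause was not tested. No paired analysis was possible because each group has 1 library, and for the same reason no replicate could be left out.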
